A study of Mus musculus with 4 samples.

Results

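The late-numbered mouse microRNAs are the 89 probes of a microRNA array whose names carry the number of miR-1892 or a higher one and are not marked with a star. They were chosen by name alone, from 700 experimental probes. The other probes were 495 for established microRNAs, which are let-7 and the lower numbers, and 116 for passenger strands, whose names end in a star. The members run from miR-1892 to miR-2183, and the highest number below them on the array was 1839.

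The study hybridised 1 array for each of 4 groups, to compare primary breast tumours and metastases with and without radiation. Per the labels, 20 female mice of the strain written Balb/s received 4T1 cells, a mouse mammary carcinoma line, in an orthotopic site. The tumours of 10 mice were given sham radiation and those of the other 10 were given a dose of 10 Gy, the primary tumour was then removed, and the metastases grew on until the end point. The groups were therefore the sham primary tumour, the 10 Gy primary tumour, the metastases of mice with a sham-treated primary tumour and the metastases of mice with a 10 Gy primary tumour. The dose was directed at the primary tumour, so the 10 Gy metastases come from mice whose primary tumour was irradiated. All groups share the strain, the cell line and the host. Neither the organ that held the metastases nor the number of animals behind each RNA sample is stated in the labels. With 1 array in each group no difference between 2 arrays has a replicate check, and the error printed is the SD over the 5 spots of a probe on 1 chip.

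A mature microRNA is an RNA of about the length of these probes' targets that is cut from a hairpin and loaded into an Argonaute protein, where its seed, bases 2 to 8, pairs with messenger RNAs and lowers their output. Numbers were given in order of discovery, so high numbers belong to sequences found late, mostly by deep sequencing and often at low abundance. Some entries of this kind are known to coincide with pieces of ribosomal or transfer RNA, which are very abundant in total RNA and which an array probe cannot tell from a microRNA of the same letters.

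The targets of the members that carry the results are shown here as the deposited scanner tables give them, 5′ to 3′, with the seed in capitals. The first set holds some of the brightest members and some with large differences between metastases and primary tumour.
miR-1892: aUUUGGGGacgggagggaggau
miR-1894-3p: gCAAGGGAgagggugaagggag
miR-1898: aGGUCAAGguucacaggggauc
miR-2134: gUCUUGGGaaacggggugc
miR-2135: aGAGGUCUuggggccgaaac
miR-2138: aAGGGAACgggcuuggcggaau
miR-2140: aGGUGCAGaucuugguggu
miR-2141: aGGAGGUGucagaaaaguu
miR-2142: aCCGGGUGcuguaggcuuu
miR-2143: cGAGGUGGgaucccgaggccucucc
miR-2145: aGCAGGGUcgggccugguu
miR-2146: gUGGAGAAggguuccaugug
The second set holds the miR-1937 targets, which are nearly identical and gave different levels.
miR-1937a: aAUCCCGGacgagccccca
miR-1937b: aUCCCGGAcgagccccca
miR-1937c: aUCCCGGAagagccccca
The third set holds members that differed between 10 Gy and sham, or that share a seed with another probe.
miR-1895: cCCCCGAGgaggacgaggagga
miR-1940: aUGGAGGAcugagaagguggagcaguu
miR-1944: cUCUGUGCugaaugucaaguucugauu
miR-1956: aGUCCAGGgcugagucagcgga
miR-1971: gUAAAGGCugggcugaga
miR-1981: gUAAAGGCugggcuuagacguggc
miR-1961: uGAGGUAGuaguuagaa

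Of the 89 members, 65 have a gene in RefSeq's mouse table (GRCm38.p6) and 53 match a RefSeq mature microRNA in both name and sequence. Only 3 of the 15 members from miR-2132 to miR-2146 have such a gene. None was found for miR-2134, miR-2135, miR-2140, miR-2141, miR-2143, miR-2145 or miR-2146, nor for miR-1937a, miR-1937b or miR-1937c. Spans were looked up only for members placed in a RefSeq hairpin (54 members), and 44 members lie within the span of another gene. In that build miR-1892 lies at chr12:54645943-54645964 on the minus strand within Sptssa, which encodes a small subunit of serine palmitoyltransferase. miR-1894-3p lies at chr17:35917938-35917959 on the plus strand within Ppp1r10, a regulator of protein phosphatase 1. miR-1898 lies at chr15:12171502-12171523 on the plus strand within Zfr, which encodes a zinc finger RNA-binding protein. miR-1956 lies at chr3:138526425-138526446 on the plus strand within Eif4e, which encodes the cap-binding translation initiation factor. miR-1895 lies at chr3:134240515-134240536 on the minus strand within Cxxc4. The array does not measure these host genes. By general knowledge of ribosomal RNA, and not by a comparison made here, the targets of miR-2142 and miR-2145 coincide with stretches of 5S ribosomal RNA, and those of miR-2135, miR-2138, miR-2140, miR-2141 and miR-2146 with stretches of the large ribosomal subunit's main RNA.

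Detection required that 3 or more of a probe's 5 spots outshone the 95th percentile of the 180 empty spots on the same chip. The median empty spot read 171, 177, 417 and 252 intensity units on the sham primary, sham metastases, 10 Gy primary and 10 Gy metastases arrays. The 10 Gy primary array had the highest background and also detected the fewest probes of every class, and the part of the one in the other was not tested. The epithelial markers miR-200a, miR-200b, miR-200c, miR-141 and miR-429, which carcinoma cells of epithelial type carry, were detected for 1 of 5 on each primary array and for 5 of 5 on each metastases array. Their summed level on the log2 scale was 9.05 and 9.21 on the sham and 10 Gy primary arrays and 12.17 and 12.03 on the matching metastases arrays. The summed erythroid markers read 11.30 and 11.11 on the primary arrays and 14.00 and 13.96 on the metastases arrays, and the summed endothelial markers 12.18 and 12.82 against 14.68 and 14.81. Fibroblast and smooth muscle markers read 10.91 and 12.78 against 13.37 and 13.62. The hepatocyte microRNA miR-122 was detected on neither primary array and on both metastases arrays, at 7.01 and 9.65. Keratinocyte markers read 7.92 and 7.72 against 8.70 and 11.73, and leukocyte markers 12.62 and 10.85 against 13.05 and 12.51. The summed level of each of these lists was higher in metastases in both arms, but single probes in them could be lower. In the 10 Gy arm miR-214 read 11.93 in primary tumour and 10.55 in metastases, and miR-155 9.65 and 9.44. In the sham arm miR-223 read 12.31 and 12.22. Of the 2 keratinocyte probes, 1 was detected on the sham primary array and 0 on the 10 Gy primary array, so those sums are near the detection limit. The part of these lists in the site differences of the members was not tested. Muscle markers, all 4 detected on every array, were lower in metastases in the sham arm (12.76 in primary tumour and 9.26 in metastases) and higher in the 10 Gy arm (13.18 and 14.02). In bulk RNA, fewer cells of a type and less RNA per cell cannot be told apart.

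Late members were detected about as often as established microRNAs. On the sham primary array 52 of 89 members were detected (58.4%), against 240 of 495 established probes (48.5%). On the sham metastases array the counts were 58 members (65.2%) and 335 established probes (67.7%). The 10 Gy primary array detected 28 members (31.5%) and 147 established probes (29.7%), and the 10 Gy metastases array 47 members (52.8%) and 252 established probes (50.9%). Passenger strands were the class detected least on every array, with 38.8%, 56.9%, 9.48% and 34.5% in the same order of arrays. Over the 4 arrays together 64 members were detected at least once (71.9%, against 72.1% of established probes and 61.2% of passenger strands). The number detected on all 4 was 27 members (30.3%), against 142 established probes (28.7%) and 11 passenger strands (9.48%).

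The members that were not on all 4 arrays were mostly lost on the 10 Gy primary array. This loss was not particular to them: that array detected 31.5% of members, 29.7% of established probes and 26.6% of all probes. The patterns below were counted for the members only. Detection on 3 arrays was seen for 11 members, and 10 of these lacked only the 10 Gy primary array. The exception was miR-1898, which lacked only the 10 Gy metastases array. Another 10 members were detected on both sham arrays alone and 6 on both metastases arrays alone. No member was detected on the 10 Gy primary array alone. The 8 members seen on a single array were miR-1893, miR-1906, miR-1928, miR-1935, miR-1941-3p, miR-1955, miR-2139 and miR-2182. They had levels of 6.69 to 7.18 there on the log2 scale, close to the detection limit.

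Detection was uneven along the numbers. The runs used here were set after the values were seen. Of the 15 members from miR-2132 to miR-2146, all were detected on at least 1 array and 12 on all 4 (80.0%). Among the 50 members from miR-1927 to miR-1971 the counts were 31 and 10 (20.0%), and among the 18 from miR-1892 to miR-1907 they were 12 and 4 (22.2%). The 4 members from miR-1981 to miR-1983 were all detected on both sham arrays and 0 of 4 on the 10 Gy primary array. All 25 members that were detected nowhere fell in the 2 runs from miR-1892 to miR-1907 (6) and from miR-1927 to miR-1971 (19). They were miR-1897-3p, miR-1899, miR-1900, miR-1902, miR-1903, miR-1904, miR-1927, miR-1932, miR-1933-3p, miR-1933-5p, miR-1936, miR-1938, miR-1942, miR-1947, miR-1950, miR-1951, miR-1953, miR-1957, miR-1958, miR-1961, miR-1962, miR-1963, miR-1964, miR-1965 and miR-1969.

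**Figure D1:**
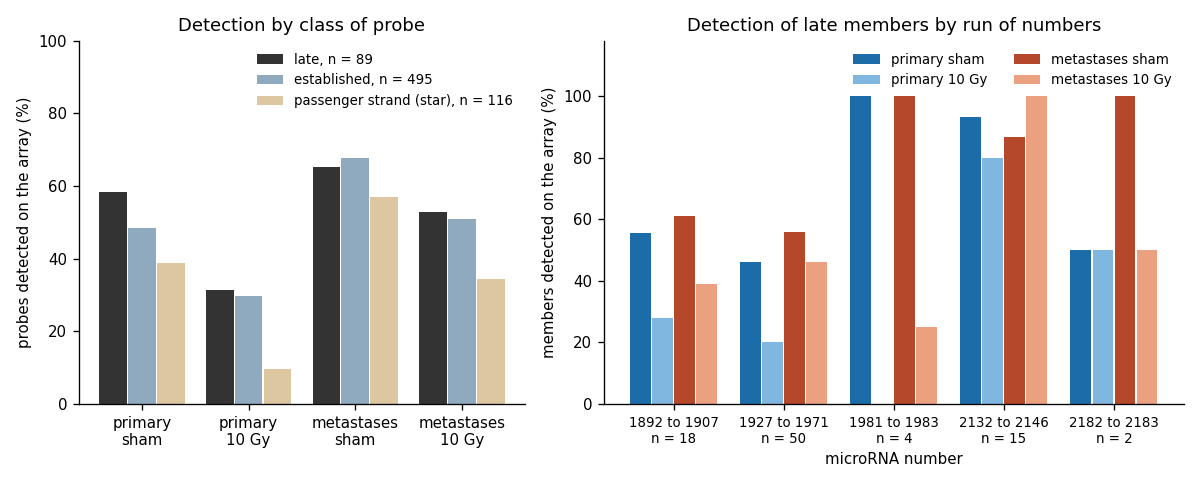
Share of probes detected on each array, in percent: on the left by class of probe, on the right for the late members by run of microRNA numbers. Late and established probes were within 10 percentage points of each other on every array, and the run from miR-2132 to miR-2146 was detected at 80.0% or more on each array.

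The levels of detected members spanned the whole scale of the array. Levels are log2 intensities after background correction and quantile normalisation. The median detected member stood at 8.07, 7.37, 10.57 and 7.56 on the sham primary, sham metastases, 10 Gy primary and 10 Gy metastases arrays, and the median detected established probe at 8.16, 7.43, 10.16 and 8.35. The higher medians of the 10 Gy primary array go with its smaller number of detected probes. Levels under 8 were found for 26 of 52 detected members on the sham primary array, 35 of 58 on the sham metastases array, 6 of 28 on the 10 Gy primary array and 27 of 47 on the 10 Gy metastases array.

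**Figure D2:**
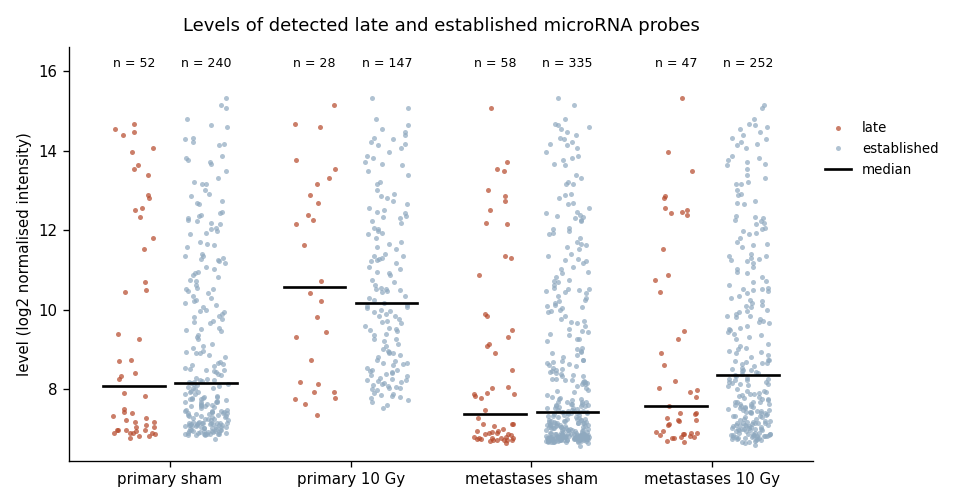
Level of each detected late probe (red) and established probe (blue) on each array, in log2 normalised intensity, with the median as a bar. The medians of late probes are 8.07, 10.57, 7.37 and 7.56 from left to right, and both classes reach above 14 on every array.

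The brightest members came mostly from the run from miR-2132 to miR-2146. A probe's brightness also depends on the probe itself, so ranks describe the array and not the amounts of RNA. Late members took 8 of the 25 brightest places on the sham primary array, of which 6 belonged to this run, and 4, 5 and 3 places on the sham metastases, 10 Gy primary and 10 Gy metastases arrays. Passenger strands took 0 places on each. miR-2142 was the brightest member throughout, with levels of 14.67, 15.08, 15.15 and 15.31 on the sham primary, sham metastases, 10 Gy primary and 10 Gy metastases arrays. It ranked 5, 3, 2 and 1 of 700 probes. Before normalisation between arrays miR-2142 read 15.27, 15.12, 15.13 and 14.92. The direction of its site and radiation differences thus reversed with the normalisation.

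Among other bright members, miR-2132 read 12.51, 12.51, 12.26 and 12.44 in the same order of arrays. miR-2137 read 13.64, 13.48, 13.17 and 13.96. Both stayed within 1 unit over the 4 arrays. miR-1892 read 14.46, 13.71, 13.77 and 12.85, and miR-2133 read 13.96, 13.00, 13.31 and 12.51. Each of these 2 was highest in the sham primary tumour and lowest in the 10 Gy metastases.

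Of the dimmer members detected on all 4 arrays, these 4 differed by less than 2-fold in every comparison. miR-1897-5p read 8.73, 8.06, 7.94 and 8.21, and miR-1966 read 8.70, 7.82, 8.13 and 7.92. miR-1945 read 7.49, 7.13, 7.35 and 6.94, and miR-2183 read 7.11, 6.89, 7.74 and 6.90. Some members with overlapping targets were also dim, though miR-1937a and miR-1937b, given below, were not. miR-1946a and miR-1946b share a run of 19 bases and read 6.90, 7.12, 6.77 and 7.38, and 7.82, 6.96, 7.02 and 7.21. miR-1982.1 and miR-1982.2 share 21 bases and stayed between 6.63 and 6.89 on all arrays. miR-1946a was detected on both metastases arrays and miR-1946b on all but the 10 Gy primary array.

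The 12 members of the run detected on all 4 arrays had a median level of 13.46 and 12.79 on the sham and 10 Gy primary arrays and of 11.92 and 11.97 on the matching metastases arrays. Spread over the arrays, taken as the highest minus the lowest of the 4 levels, had a median of 1.62 over the 27 members detected on all 4, from 0.17 for miR-1949 to 3.90 for miR-2140. The 142 established probes detected on all 4 had a median of 1.47 and a range of 0.16 to 6.48. A spread of at least 1 was seen for 18 of 27 members (66.7%) and 109 of 142 established probes (76.8%).

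**Figure D3:**
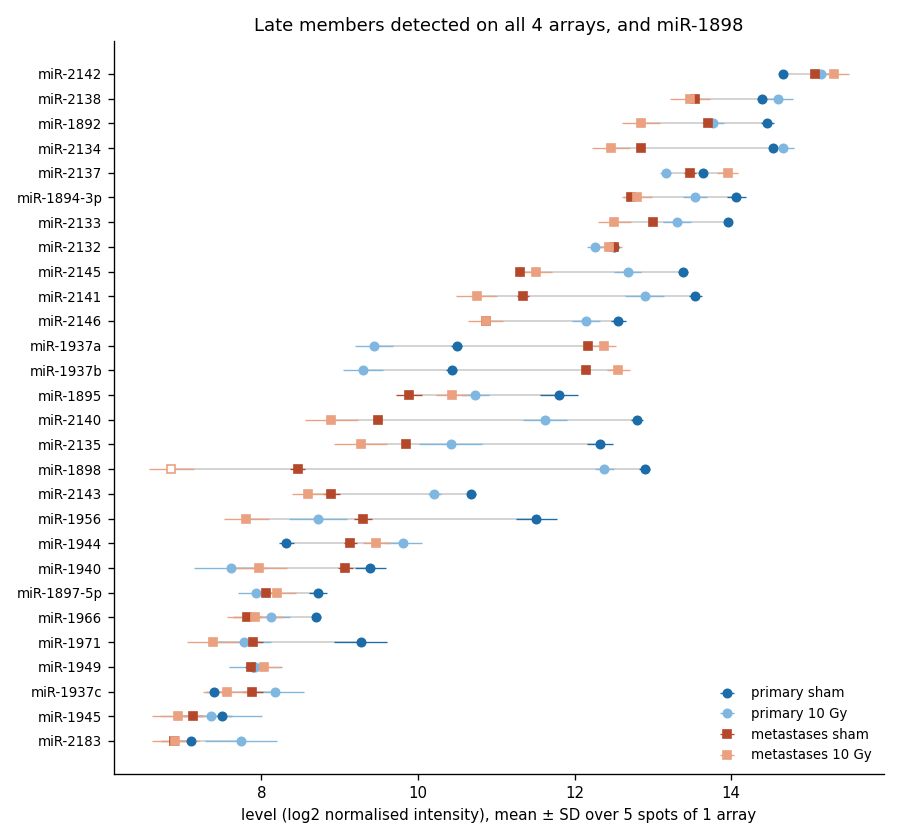
Level of the 27 late members detected on all 4 arrays, and of miR-1898, in log2 normalised intensity on each array, with the SD over 5 spots as the error bar and an open symbol where the probe was not detected. miR-2142 lies at the top with 14.67 to 15.31, and miR-1898 has the widest spread, from 12.89 in the sham primary tumour to 6.85 in the 10 Gy metastases.

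Metastases against primary tumour gave the largest differences among the members, and most were lower in metastases. In the sham arm 3 of the 62 members that either array detected were at least 2-fold higher in metastases (4.84%), against 11.8% of all probes. At least 2-fold lower were 13 of 62 (21.0%), against 10.6% of all probes. The run from miR-2132 to miR-2146 held 8 of these 13. Members from miR-1927 to miR-1971 had 2 of 30 lower (6.67%), and those from miR-1892 to miR-1907 had 3 of 12 (25%). In the 10 Gy arm 2 of 48 members were at least 2-fold higher (4.17%), against 10.2% of all probes, and 9 of 48 were at least 2-fold lower (18.8%), against 11% of all probes. The same run held 8 of these 9. Members from miR-1927 to miR-1971 had 0 of 23 lower, and those from miR-1892 to miR-1907 had 1 of 8 (12.5%). Without normalisation the 10 Gy arm had 3 members higher (6.25%), against 14.2% of all probes, and 4 lower (8.33%), against 4.36%. With each array scaled to the 75th percentile of the probes detected on all 4 arrays it had 2 higher and 18 lower (37.5%), against 22.4% of all probes lower. Over members detected on both arrays the median difference was -0.34 in the sham arm and -0.61 in the 10 Gy arm. For all probes it was -0.01 and -0.33, and for established probes 0.08 and -0.23.

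miR-1898 had the largest difference of all members. It read 12.89 on the sham primary array and 12.38 on the 10 Gy primary array, 8.47 on the sham metastases array, and 6.85 without being detected on the 10 Gy metastases array. Both primary arrays were thus far above both metastases arrays. The difference in the sham arm was -4.43 ± 0.13 (SD over 5 spot pairs), or 21.5-fold lower. In the 10 Gy arm miR-1898 was at least 46.2-fold lower in metastases. The size of this bound rests on the background correction and normalisation used here and was not compared across the alternatives.

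Within the run from miR-2132 to miR-2146, 8 of 14 members measured in the sham arm and 8 of 15 in the 10 Gy arm were at least 2-fold lower in metastases (57.1% and 53.3%, against the 10.6% and 11% of all probes given above), and 0 were higher. Without normalisation the 10 Gy arm had 3 of the 15 lower and 1 higher, and with cyclic loess 5 lower. miR-2140, one of the targets credited above to the large ribosomal subunit, read 12.80 and 11.62 on the sham and 10 Gy primary arrays and 9.49 and 8.89 on the matching metastases arrays. Its differences were -3.31 ± 0.11 and -2.73 ± 0.11. miR-2141, another of these, read 13.54 and 12.89 in primary tumour and 11.34 and 10.75 in metastases. Its differences were -2.20 ± 0.05 and -2.14 ± 0.07, so that the 2 arms gave nearly the same value. miR-2134 read 14.53 and 14.67 in primary tumour and 12.85 and 12.46 in metastases, with differences of -1.69 ± 0.01 and -2.21 ± 0.12.

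miR-2143 read 10.68 and 10.21 in primary tumour and 8.89 and 8.60 in metastases, with differences of -1.79 ± 0.16 and -1.61 ± 0.19. For miR-2146 the levels were 12.56 and 12.15 in primary tumour and 10.87 and 10.87 in metastases, with differences of -1.69 ± 0.11 and -1.28 ± 0.15. In each of these members both primary arrays lay above both metastases arrays. miR-2135 read 12.33 and 10.42 in primary tumour and 9.84 and 9.27 in metastases, with differences of -2.48 ± 0.15 and -1.15 ± 0.07. miR-2145, credited above to 5S ribosomal RNA, read 13.38 and 12.68 in primary tumour and 11.31 and 11.51 in metastases, with differences of -2.08 ± 0.05 and -1.17 ± 0.21. Without normalisation the 10 Gy arm gave -0.75 for miR-2143, -0.31 for miR-2146, -0.10 for miR-2135 and -0.28 for miR-2145, all under the 2-fold limit.

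Not every bright member of the run was lower in metastases. miR-2138 was lower by 1.12 ± 0.12 in the 10 Gy arm, from 14.60 to 13.48, and differed by less than 2-fold in the sham arm, where it read 14.39 and 13.54. Without normalisation the 10 Gy arm gave -0.93 for it. miR-2142, miR-2132 and miR-2137 stayed under the 2-fold limit in both arms. miR-2142 and miR-2145, both credited above to 5S ribosomal RNA, therefore had different patterns.

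Outside the run, 4 further members were at least 2-fold lower in metastases in the sham arm and not in the 10 Gy arm, and the difference between the arms was not tested. miR-1956 read 11.51 in the sham primary tumour and 9.30 in the sham metastases, a difference of -2.21 ± 0.19. miR-1895 read 11.80 and 9.89, a difference of -1.92 ± 0.14, and miR-1971 read 9.27 and 7.90, a difference of -1.37 ± 0.31. miR-1894-3p read 14.07 and 12.72, a difference of -1.35 ± 0.13. In the 10 Gy arm miR-1956 read 8.73 in primary tumour and 7.81 in metastases, miR-1895 read 10.72 and 10.43, miR-1971 read 7.78 and 7.38, and miR-1894-3p read 13.54 and 12.80. Each was lower in metastases by less than 2-fold. miR-2144, a member of the run, read 8.24 and 7.08 in the sham arm, a difference of -1.17 ± 0.20 that was -0.73 without background correction.

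For most members detected on all 4 arrays the site difference had the same direction in both arms. The arms share no array, but all 4 arrays were normalised together. Both differences had the same sign for 20 of 27 members (74.1%), against 94 of 142 established probes (66.2%) and 122 of all 180 probes detected on all 4 arrays (67.8%), so the members' share was near that of the array. The sign was negative in both arms for 17 members. Both were at least 2-fold lower for 7 of 27 members (25.9%), against 5 of 142 established probes (3.52%) and 13 of all 180 (7.22%). All 7 were among the 12 such members of the run from miR-2132 to miR-2146, so no member outside the run was counted. Both were at least 2-fold higher for 2 members (7.41%), against 16 established probes (11.3%) and 18 of all 180 (10%). Across the 27 members the 2 differences had a Pearson r of 0.82 and a Spearman rho of 0.76, and across the 142 established probes an r of 0.49 and a rho of 0.59. These describe probes of the same arrays, which are not independent. Without the run from miR-2132 to miR-2146, 15 members remain, with an r of 0.73 and a rho of 0.49.

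**Figure D4:**
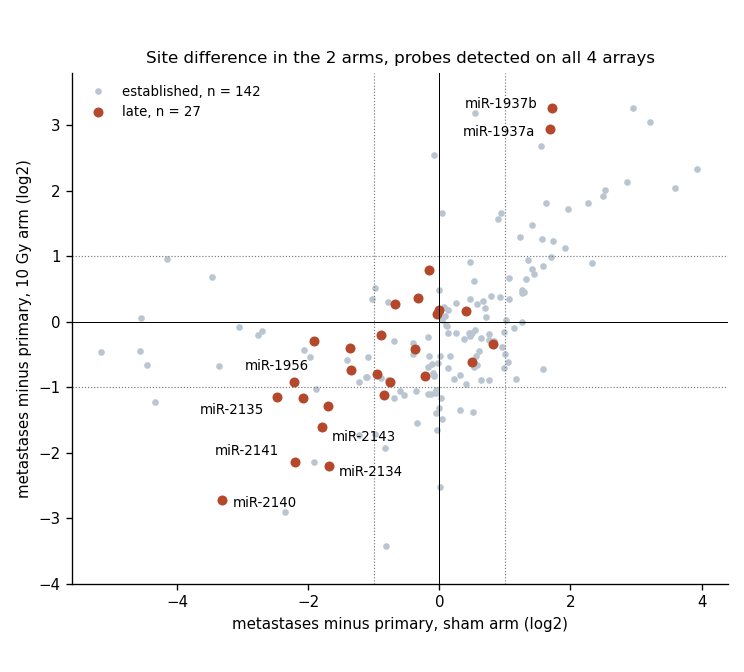
Metastases minus primary tumour in the sham arm (horizontal) and the 10 Gy arm (vertical), in log2, for late (red) and established (grey) probes detected on all 4 arrays, with dotted lines at 2-fold. Of 27 late probes, 7 lie beyond 2-fold lower in both arms, all from the run from miR-2132 to miR-2146. Beyond 2-fold higher lie 2, miR-1937a and miR-1937b.

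miR-1937a and miR-1937b were the members at least 2-fold higher in metastases in both arms. They and miR-1937c have targets that end in CCA, the ending that mature transfer RNAs carry, and these 3 are the only ones of the 89 that do. On the array 6 of 495 established targets and 1 of 116 passenger strand targets end in CCA too. miR-1937a read 10.49 and 9.44 on the sham and 10 Gy primary arrays and 12.17 and 12.38 on the matching metastases arrays. miR-1937b, whose whole target is contained in that of miR-1937a, read 10.43 and 9.30 in primary tumour and 12.15 and 12.56 in metastases. The 2 probes share a stretch of 18 bases, so their values are not independent. In the sham arm they were higher in metastases by 1.68 ± 0.09 and 1.72 ± 0.10, and in the 10 Gy arm by 2.94 ± 0.24 and 3.26 ± 0.22.

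The target of miR-1937c has 1 base that differs from that of miR-1937b, C9A counted from the 5′ end, which lies just outside the seed. It read 7.39 and 8.17 in primary tumour and 7.88 and 7.56 in metastases, and it differed by less than 2-fold in both arms. Among the other members, miR-1939 was detected in both metastases and in neither primary array, with levels of 7.78 and 7.20. It was at least 2.03-fold higher in metastases in the sham arm. Without background correction, or when all 5 spots had to pass for detection, it was not counted as 2-fold higher.

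After 10 Gy, primary tumours had more members lower than higher. Of the 52 members that either primary array detected, 1 was at least 2-fold higher after 10 Gy (1.92%), against 14.7% of all probes. At least 2-fold lower were 9 of 52 (17.3%), against 13% of all probes. These counts depend on the scaling: with each array scaled to the 75th percentile of its common probes, 5 members were higher (9.62%), against 24.2% of all probes, and 3 lower (5.77%), against 7.37% of all probes, so the share of lower members was no longer above that of the array. Without normalisation 0 were higher and 22 lower (42.3%), against 26.3% of all probes lower. The summed leukocyte markers were 12.62 in the sham and 10.85 in the 10 Gy primary tumour and the summed fibroblast and smooth muscle markers 10.91 and 12.78, and their part in the radiation differences was not tested. The median difference over members detected on both arrays was -0.55, against 0.22 for all probes and 0.54 for established probes.

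miR-1956 had the largest radiation difference among the members. It read 11.51 in the sham and 8.73 in the 10 Gy primary tumour, a difference of -2.79 ± 0.48 or 6.90-fold. In metastases it read 9.30 and 7.81, a difference of -1.49 ± 0.29. miR-1940 read 9.39 and 7.61 in primary tumour and 9.07 and 7.97 in metastases, with differences of -1.78 ± 0.35 and -1.10 ± 0.29. These 2 were the members at least 2-fold lower after 10 Gy at both sites. Among probes detected on all 4 arrays this was 2 of 27 members (7.41%), against 4 of 142 established probes (2.82%) and 6 of all 180 (3.33%). Counts this small do not set the members apart. For miR-1940 the primary difference was -0.70 with scaling to the 75th percentile and the metastases difference was -0.79 without background correction.

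The other members lower in the 10 Gy primary tumour were miR-2135 (-1.91 ± 0.28), miR-1971 (-1.49 ± 0.50), miR-2140 (-1.18 ± 0.21), miR-1937b (-1.13 ± 0.19), miR-1895 (-1.08 ± 0.16), miR-1937a (-1.05 ± 0.23) and, by its bound, miR-1931, which was at least 2.06-fold lower. With scaling to the 75th percentile, miR-1971 stood at -0.55, miR-1937a at -0.80, miR-1937b at -0.79 and miR-1895 at -0.95, all under 2-fold. miR-1931 too was not counted as 2-fold lower with that scaling. miR-1944 was the member higher in the 10 Gy primary tumour. It read 8.32 and 9.81, a difference of 1.49 ± 0.28, which was 0.18 without normalisation and 0.88 with cyclic loess.

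In metastases, few members passed 2-fold between mice with an irradiated and a sham-treated primary tumour. Of 62 members, 0 were at least 2-fold higher (0%), against 2.29% of all probes, and 3 were at least 2-fold lower (4.84%), against 2.49% of all probes. With scaling to the 75th percentile the counts were 2 higher (3.23%, against 8.52% of all probes) and 3 lower. Without normalisation 0 were higher and 13 lower (21.0%), against 14.8% of all probes lower. The 3 lower members were miR-1898, at least 3.06-fold lower, and miR-1956 and miR-1940 as given above. The median difference of members detected on both arrays was 0.01 and that of all probes was 0.00. Members of the run from miR-2132 to miR-2146 lay between -0.59 and 0.48, so that 0 passed 2-fold.

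**Figure D5:**
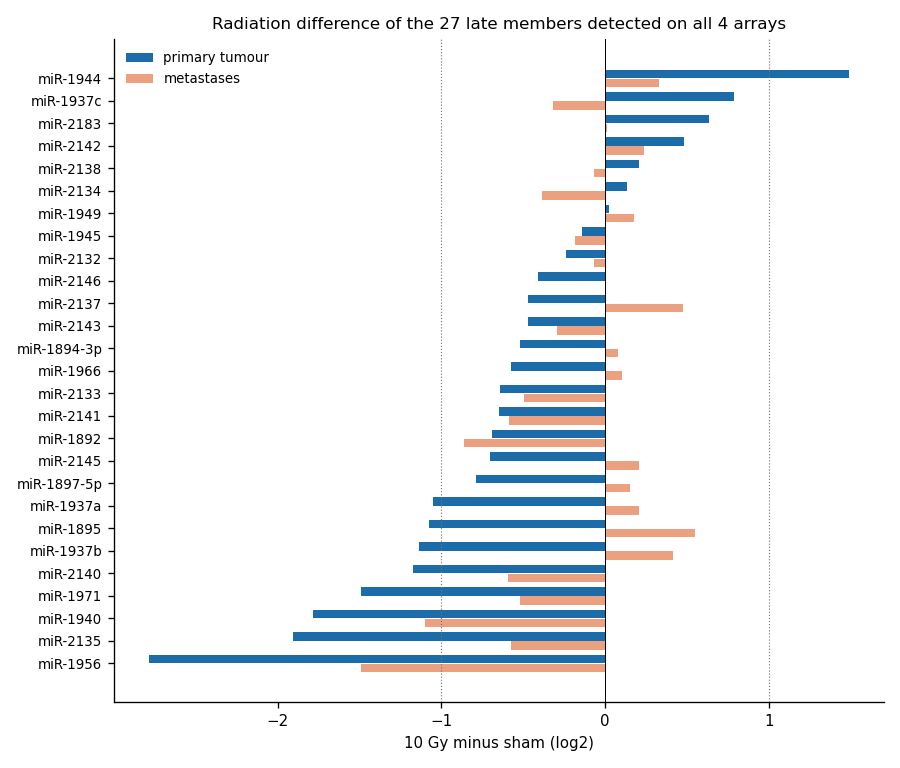
Difference between 10 Gy and sham in log2 for the 27 late members detected on all 4 arrays, in primary tumour (blue) and metastases (orange), with dotted lines at 2-fold. miR-1956 lies at -2.79 in primary tumour and -1.49 in metastases, and miR-1944 at 1.49 in primary tumour.

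The radiation differences in the 2 sites had a Pearson r of 0.53 and a Spearman rho of 0.34 over the 27 members and an r of 0.27 and a rho of 0.27 over the 142 established probes. Both differences had the same sign for 15 of 27 members and for 74 of 142 established probes. Of the 27 members, 0 passed 2-fold in opposite directions at the 2 sites, against 4 of 142 established probes and 4 of all 180 probes. These counts are too small to compare.

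An additive fit of site and radiation over all 4 arrays (limma, Benjamini-Hochberg adjustment over 374 probes detected on at least 2 arrays) had 56 members in it. It left 1 residual degree of freedom, so its error is the disagreement between arms or sites and holds no spread between animals. At an adjusted p under 0.05 it called 0 members and 0% of all probes for site, and 0 members and 0% of all probes for radiation. At an unadjusted p under 0.05 it had 15 of 56 members for site (26.8%), against 22.2% of all probes, and 4 members for radiation (7.14%), against 5.88% of all probes. For site the lowest limma adjusted p was 0.12, shared by miR-1898 (fitted difference -4.98, SE 0.39), miR-2140 (-3.02, SE 0.26), miR-2141 (-2.17, SE 0.19) and miR-2143 (-1.70, SE 0.19). Among the run from miR-2132 to miR-2146, 9 of 14 members in the fit had an unadjusted p under 0.05 for site and 0 for radiation. With scaling to the 75th percentile limma set the prior degrees of freedom to infinity, so that all probes shared 1 variance. That fit, which is not comparable with the one above, called 42 of 374 probes for site (11.2%), among them 8 of 56 members: miR-1898, miR-1956, miR-2134, miR-2135, miR-2140 and miR-2141 as lower and miR-1937a and miR-1937b as higher in metastases.

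A seed was shared with an established microRNA by 5 members. For miR-1961 and miR-1928 the partners were bright and the member was dim or undetected. miR-1961 carries the let-7 seed, and its target has a run of 13 bases in common with let-7g and let-7i, members of a family that holds back growth-promoting messenger RNAs. miR-1961 was detected on 0 of 4 arrays, with values of 6.64, 6.57, 6.43 and 6.43, while let-7g read 12.46, 13.81, 12.72 and 13.67 and let-7i read 13.00, 14.07, 13.87 and 14.22. The short probe thus gave no detected signal on arrays where let-7 probes were bright. miR-1928 carries the seed of miR-221 and miR-222 and shares a run of 10 bases with miR-221. It was detected on 1 array, at 6.69, while both partners were detected on all 4 at 10.92 to 12.56. miR-1907 carries the seed of the miR-15 and miR-16 family and read 7.32, 7.27, 7.27 and 7.11, with detection on 3 arrays, while its 6 partners ranged from 6.75 to 13.77. The partners of miR-1962 (miR-485, 6.62 to 6.76) and of miR-1983 (miR-412, 6.50 to 6.98) were themselves dim. miR-1962 was detected on 0 arrays and miR-1983 on both sham arrays, at 6.89 and 6.94. miR-1971 and miR-1981 share a seed and differ by 1 of the 18 bases compared, with the substitution G15U from miR-1971 to miR-1981, and miR-1981 read 7.27, 7.47, 6.64 and 7.40, against 9.27, 7.90, 7.78 and 7.38 for miR-1971.

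The members' targets were richer in G and C than those of established microRNAs. Their median GC content was 57.9%, against 45.5%, and their median G content 36.4%, against 24.0%. A run of at least 3 G was present in 43 of 89 members (48.3%) and 102 of 495 established targets (20.6%). Among the members detected on all 4 arrays the median GC content was 60.0% and among those detected nowhere 52.2%, and for established probes these values were 47.9% and 40.9%. Over the 27 members on all 4 arrays the mean level and the GC content had a Spearman rho of 0.29, and over 142 established probes of -0.24. For the G content alone rho was 0.55 and 0.11. These are descriptions across different probes of the same arrays, whose brightness also depends on the probe, and the part of base composition in the levels was not tested.

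The array also carried 5 probes for 5S ribosomal RNA, whose target letters the tables leave blank, so they were set beside miR-2142 and miR-2145 by level only. Before normalisation between arrays the 5S probes read 12.72 to 15.82 over all arrays. miR-2142 read 15.27, 15.12, 15.13 and 14.92, and miR-2145 read 13.86, 12.02, 11.81 and 11.52. On this scale miR-2142 differed between metastases and primary tumour by -0.15 and -0.22 in the sham and 10 Gy arms, and miR-2145 by -1.84 and -0.28. The 5S probes ranged from -0.37 to 1.11 in the sham arm and from -0.62 to 1.32 in the 10 Gy arm. miR-2145 was thus lower in sham metastases than any of the 5S probes was.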

How the data were processed

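RNA from 4 samples was measured on 4 one-colour Cy3 arrays, with 2 µg of total RNA tailed, tagged and hybridised by a service provider, per the labels' protocols. The deposited scanner tables hold each spot's mean intensity, linear and with the background still in it, with commas between groups of digits that were removed. The authors' value table, a background-subtracted intensity per probe, was used as an alternative. The scanner software is not given in the sources used here. Background was corrected by normexp with an offset of 50, which shrinks differences of dim probes (limma 3.58.1, R 4.3.3), the log2 values of 5 spots were averaged, and arrays were quantile normalised over 700 probes. A probe detected on 1 of 2 arrays was given only a bound, the brighter level minus the dim probe's own level or, where higher, the lowest detected level of its array. The additive limma fit had 1 residual and 1.519 prior degrees of freedom. It was tried on simulated data that gave every probe the same noise. That setting differs from these arrays, so the trial does not show how well the fit performs on them. The rule for members with values in the text took those detected on all 4 arrays, per comparison up to 6 at each end past 2-fold and the 3 largest bounds, the 5 brightest of each array, and those that share a seed or a run of at least 15 bases. The 5 runs of numbers were set after the values were seen. Members and lists were chosen with earlier results of these data known. The number of arrays limits the precision.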

Additional observations from a re-analysis of the deposited data

How the results depend on the processing

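The counts of members past 2-fold depended on the scaling between arrays most of all. In the primary tumour, members lower after 10 Gy numbered 22 without normalisation, 17 with cyclic loess, 5 without background correction and 3 with scaling to the 75th percentile, against 9 (all probes: 89, 58, 32 and 25 of 339, against 44), and members higher numbered 0, 0, 1 and 5 in the same order, against 1. In metastases, 13 were lower after 10 Gy without normalisation, against 3, and 2 were higher with scaling to the 75th percentile, against 0. Metastases against primary tumour in the 10 Gy arm gave 18 lower with scaling to the 75th percentile and 4 without normalisation, against 9. In the same 2 settings 77 and 15 of all 344 probes were lower, against 38. The site term of the fit called 8 members with scaling to the 75th percentile, where the prior degrees of freedom were infinite, against 0 with finite ones. The median of all probes moved with that scaling to 0.78 and 0.29 for radiation in primary tumour and metastases and to -0.22 and -0.77 for site in the sham and 10 Gy arms, and without normalisation to -0.63, -0.50, 0.11 and 0.19. The cause of these shifts was not tested. The sham-arm site counts moved by no more than 1.5 times under any alternative run, and so did the counts of members detected on at least 1 array (64, with 48 when all 5 spots had to pass and 67 with the row trend removed) and on all 4 (27, with 19 and 30). Of 36 named differences past 2-fold, all of members detected on both arrays compared, 0 changed sign under any alternative. Of these, 30 to 36 stayed past 2-fold, with 34 of 35 in the authors' value table. Bounds, such as that of miR-1898 in the 10 Gy arm, were not among the 36. No paired analysis was possible because the groups share fewer than 2 replicate numbers, and the additive fit holds the arm as a term for site. Signal over background limits the dim members, of which many stand near the level of the empty spots.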
